A study of Mus musculus with 16 samples.

Results

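The nuclear-encoded subunits of respiratory complexes II to V were followed in kidney RNA of ageing male mice. Members were taken by gene symbol: the succinate dehydrogenase genes Sdha, Sdhb, Sdhc and Sdhd, cytochrome c1 (Cyc1), and every symbol that starts with Uqcr, with Cox4 to Cox8, or with Atp5, without Atp5s, Atp5sl and pseudogene symbols that hold -ps. The symbols gave 48 genes of 40879 in the count files, of which 4 belong to complex II, 9 to complex III, 18 to complex IV and 17 to complex V. A filter on low counts left 45 of the 48. The other 3 are isoforms of complex IV: Cox4i2, best known from lung, had 48 counts over all 16 libraries, and Cox7b2 and Cox8c, best known from testis, had 3 and 1.

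These complexes form the later part of oxidative phosphorylation. Complex II oxidises succinate and feeds electrons into ubiquinone, complex III passes them from ubiquinol to cytochrome c, complex IV passes them on to oxygen, and complex V, the ATP synthase, makes ATP from the proton gradient that complexes III and IV help to build. In the kidney the proximal tubule is especially rich in mitochondria and depends on this pathway to power the reabsorption of sodium and solutes. All subunits of complex II and most subunits of the other complexes are encoded in the nucleus, and several subunits of complexes IV and V exist in tissue-typical isoforms.

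The study set aged mice given a herbal formula beside untreated aged and young mice, all wild-type male C57BL/6. Palmijihwang-tang (PM) was given to the Old + PM group (3 libraries) and Yukmijihwang-tang (YM) to the Old + YM group (3 libraries), each orally between 19 and 24 months of age, in a dose of 100 mg/kg/day and with 5 dosing days a week. The Old group (5 libraries) aged without treatment, and the sources do not state how old it was when sampled. The Young group (5 libraries) was 3 months old. The aged mice had 5 months of acclimatization before they were divided into groups, and no such time is given for Young. A passage of the labels names YM in the dose of the PM group, and the group name was followed. The labels do not state that each library is a different mouse, so p-values measure only the spread between these libraries.

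Levels are given in CPM, the counts of 3' end reads per 1000000 of a library size scaled by TMM (trimmed mean of M values). Libraries held 8223008 to 10914515 counts, of which 213739 to 305002 fell on the members. Proximal tubule markers were abundant in every library, and the summed level of 16 of them was 16600 to 20048 CPM in Old + PM, 16358 to 17654 CPM in Old + YM, 14256 to 20433 CPM in Old, and 21187 to 24790 CPM in Young. Of these 16, 4 fell and 2 rose in Old against Young, and none passed in the treated comparisons. Macrophage markers rose in 8 of 10 cases in Old, and their sum was 112 to 589 CPM in Old, with Old 5 highest, and 111 to 139 CPM in Young. B and plasma cell markers summed to 121 to 195 CPM in Old and 7.01 to 18.5 CPM in Young (3 of 6 tested rose), and podocyte markers to 255 to 296 CPM in Old and 213 to 233 CPM in Young (2 of 6 rose), both without overlap. Clock genes also parted the ages: a clock score was 0.04 or higher in 9 of 11 aged libraries, -1.64 in Old 4, -0.09 in Old + YM 3, and between -2.88 and -0.97 in Young. The part of these cell markers in the results was not tested, and a fit with the clock score is given with the age comparison. On the main axis of variation of the members within groups, described after the age comparison, Young 1, Young 5, Old 4, Old + PM 1 and Old + PM 3 lay farthest out. A fit without Young 5, Old 4 and Old + PM 3 therefore leaves Young 1 and Old + PM 1 in. In bulk tissue, fewer cells of a type and less RNA per cell cannot be told apart.

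Transcripts of 14 subunits were lower in old kidneys, 13 of them by log2 values between -0.53 and -0.30 and Cox6a2 by -1.53. Against Young, 14 of the 45 tested members fell in Old (31.1%, where 7.13% of all tested genes fell) and 1, Cox6b2, rose (6.47% of all tested genes rose), by edgeR's quasi-likelihood test at an adjusted p under 0.05 over all 14665 genes. Log2 fold changes were below 0 for 39 of 45 members, where 47.4% of all tested genes were below 0. Their median was -0.24, against 0.02 over all tested genes. Members with an unadjusted p under 0.05 numbered 24 of 45 (28.1% of all tested genes). The libraries of Old and Young did not overlap for 9 members (9.19% of all tested genes), of which 8 were lower in Old (4.97% of all tested genes) and Cox6b2 was higher. Calls fell on every complex: 1 of 4 members of complex II, 5 of 9 of complex III, 4 of 15 of complex IV and 4 of 17 of complex V were lower in Old.

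**Figure D1:**
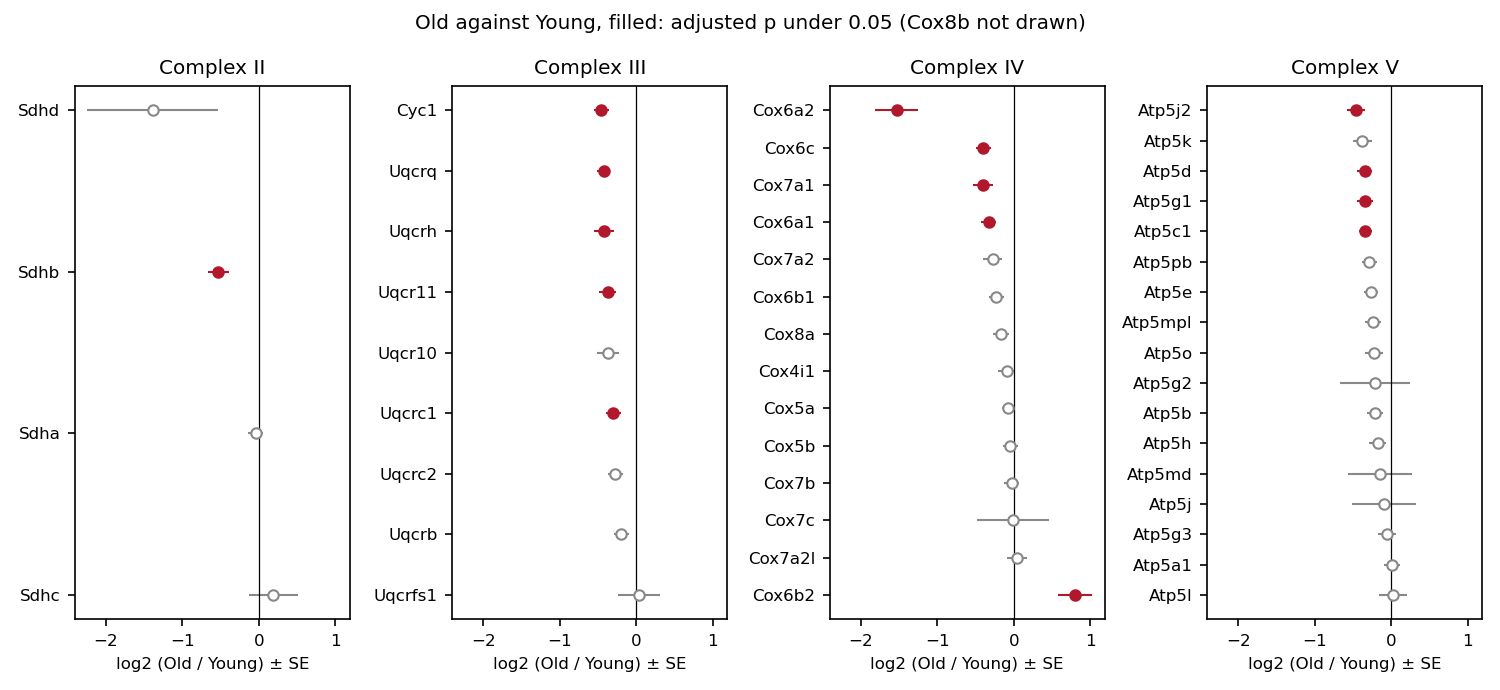
Log2 fold change of Old over Young on the horizontal axis for each tested gene of complexes II to V except Cox8b, with bars of ± 1 SE; filled circles have an adjusted p under 0.05. Most circles sit left of 0, Cox6a2 farthest among the filled ones at -1.53, and Cox6b2 is the filled circle on the right at 0.80.

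The count rests on several libraries and on the scaling. Leaving out Young 1 gave 5 calls (11.1% of the members, where 9.53% of all genes tested in that fit passed). Young 2 gave 7 (15.6%, against 9.3%), Young 3 gave 9 (20%, against 9.58%) and Young 4 gave 8 (17.8%, against 8.45%). Old 1 gave 9 (20%, against 10.6%) and Old 5 gave 8 (17.8%, against 8.29%), so calls over all genes were fewer in these fits too. Without Young 5, Old 4 and Old + PM 3 there were 22 (19 lower, 3 higher), or 48.9% of the members, and 26.1% of all genes, so calls rose over all genes as well. With library totals as the only scaling 3 members passed (6.67%, against 15.2% of all genes), with Cox6a2 and Uqcrq lower and Cox6b2 higher in Old, so the share of members past the threshold was there below that of all genes. In that fit the median of all tested genes was 0.19 and that of the members -0.08. The members made up 2.53% ± 0.127 of all counts in Old and 2.64% ± 0.0912 in Young (SD, n = 5 each). With the clock score as a covariate, 2 members passed (4.44%, against 3.42% of all genes), Atp5h and the nearly undetected Cox8b, both lower and neither among the 15, while the median of the members was -0.28. That score was -2.88 to -0.97 in Young and 1.41 to 2.12 in Old apart from Old 4 (-1.64). Age and clock state therefore cannot be told apart by this fit.

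Summed over its members, complex III had 4340 ± 466 CPM in Old, against 5491 ± 323 CPM in Young. Complex II had 1697 ± 178 CPM in Old, against 2048 ± 90.9 CPM in Young. Complex IV had 8219 ± 628 CPM in Old, against 9532 ± 273 CPM in Young. Every Old library lay below every Young library for these sums and for complex V, which had 10491 ± 896 CPM in Old, against 11967 ± 513 CPM in Young (SD, n = 5 each). Old 5 was the lowest library of all 16 for each of the 4 sums. The treated groups lay between for complexes II, IV and V: complex II had 1850 ± 177 CPM in Old + PM and 1756 ± 76.9 CPM in Old + YM, complex IV had 9122 ± 540 and 9118 ± 438 CPM in these groups, and complex V had 11169 ± 865 and 11664 ± 351 CPM (SD, n = 3 each). For complex III, Old + PM had 4734 ± 230 CPM and Old + YM 4318 ± 234 CPM, the Old + YM mean close to that of Old. These sums are a description and were not tested. They rest on the scaling, with TMM factors of 0.850 to 0.963 in Young and 0.972 to 1.11 in Old. As a share of all counts, without TMM, all members together overlapped between the ages. They made up 2.53% to 2.74% in Young and 2.37% to 2.66% in Old. The sums of each complex were not computed on library totals alone.

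**Figure D2:**
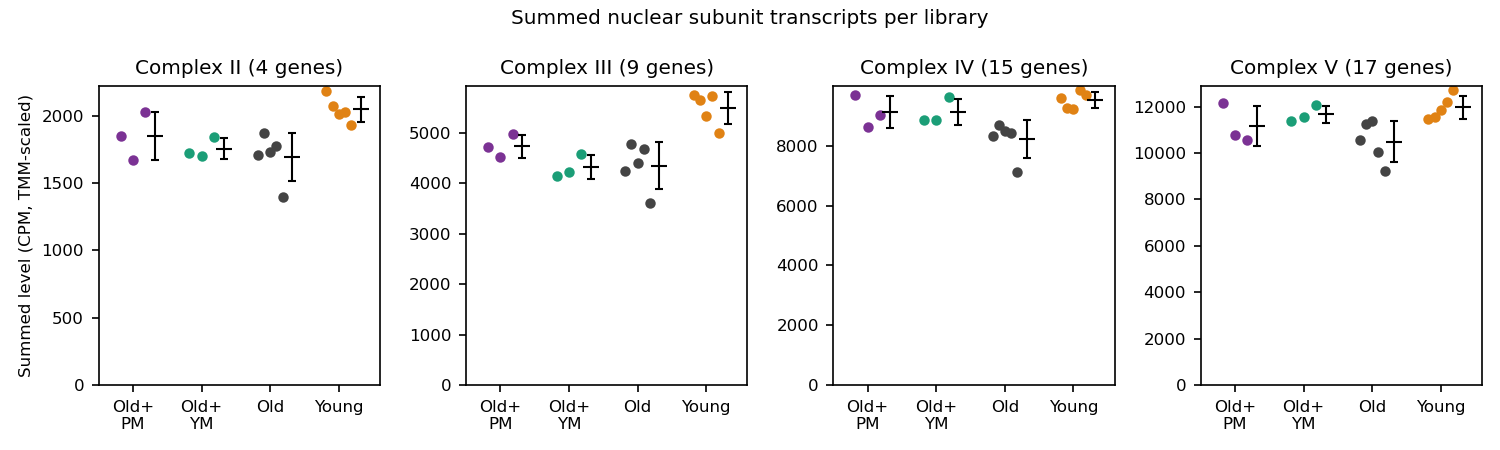
Summed level of the tested members of each complex per library (vertical axis, CPM on TMM-scaled library sizes, from 0), with the mean and SD of each group beside the points. On this scaling all 5 Old libraries lie below all 5 Young libraries in each panel, and Old 5 is the lowest point.

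Promoter sequence of the members was read from RefSeq (GRCm38.p6, 250 bases before to 50 after the start), where 36 of the 48 were matched. The letters GCATGCGC, the core of the site of NRF1, a regulator of nuclear genes of respiration, were found on either strand in 7 of the 36 (19.4%) and in 3.05% of 27025 genes. CCGGAAGT, a site of ETS factors such as GABPA, was found in 4 (11.1%, against 4.31%). AAGGTCA, the site of the nuclear receptor ESRRA, was found in 5 (13.9%, against 5.38%), and 13 (36.1%, against 12.2%) held any of the 3. Of the 7 with the NRF1 letters, Sdhb, Uqcrc1, Uqcr11 and Cox6a1 fell in Old, while Atp5g2, Atp5k and Atp5l did not pass. Atp5c1, Atp5d, Atp5g1, Atp5j2, Cox7a1 and Uqcrh were matched and also fell, without the NRF1 letters. Cyc1, Uqcrq, Cox6c and Cox6a2, which fell too, had no matched promoter. The promoters of those 4 are shown as examples of called members that hold the letters. Leaving out 1 library at a time, the calls of Uqcrc1, Uqcr11 and Cox6a1 held in 4, 9 and 9 of 16 fits. A link between the letters and the falls was not tested. They are at chr4:140961021-140961320 (plus strand), chr9:108936398-108936697 (plus), chr10:80406772-80407071 (minus) and chr5:115348909-115349208 (minus), with the NRF1 letters, and in Uqcr11 also the ETS letters, in capitals. Where the NRF1 letters overlap their own reverse complement, the run in capitals is longer.
Sdhb: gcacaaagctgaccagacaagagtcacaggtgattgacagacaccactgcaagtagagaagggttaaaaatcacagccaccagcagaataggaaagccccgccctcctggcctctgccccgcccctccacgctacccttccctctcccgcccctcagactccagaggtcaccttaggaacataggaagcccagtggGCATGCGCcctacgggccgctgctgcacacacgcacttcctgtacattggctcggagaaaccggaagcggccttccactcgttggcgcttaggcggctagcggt
Uqcrc1: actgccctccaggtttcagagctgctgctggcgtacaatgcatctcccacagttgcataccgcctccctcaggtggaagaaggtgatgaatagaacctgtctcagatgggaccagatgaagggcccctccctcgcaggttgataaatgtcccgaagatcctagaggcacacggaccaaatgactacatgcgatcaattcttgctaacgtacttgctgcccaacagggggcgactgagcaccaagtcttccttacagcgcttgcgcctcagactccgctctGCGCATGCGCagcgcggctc
Uqcr11: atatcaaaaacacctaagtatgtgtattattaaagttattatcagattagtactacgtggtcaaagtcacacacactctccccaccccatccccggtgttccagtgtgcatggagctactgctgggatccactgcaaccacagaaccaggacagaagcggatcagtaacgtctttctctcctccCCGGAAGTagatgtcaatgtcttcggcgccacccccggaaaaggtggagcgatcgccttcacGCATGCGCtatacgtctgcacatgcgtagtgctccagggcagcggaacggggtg
Cox6a1: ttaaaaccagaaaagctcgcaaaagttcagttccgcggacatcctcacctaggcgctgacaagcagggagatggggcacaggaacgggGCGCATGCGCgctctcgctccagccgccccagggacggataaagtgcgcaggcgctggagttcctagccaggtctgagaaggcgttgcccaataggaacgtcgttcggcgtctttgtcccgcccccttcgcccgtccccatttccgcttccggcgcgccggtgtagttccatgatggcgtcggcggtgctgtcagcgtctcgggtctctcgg
A match is a description of these letters, and a window without them says nothing about the factors.

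Complex II is an enzyme with a flavoprotein (Sdha), an iron-sulfur protein (Sdhb) and 2 membrane anchors (Sdhc and Sdhd). Sdhb (chromosome 4, 140961203 to 140979193, plus strand, 8 exons) fell in Old. It had 804, 866, 786, 1019.6 and 576 CPM in the 5 Old libraries and 1373, 1246, 1127, 1185 and 912 CPM in the 5 Young libraries. Young 5 was the lowest Young and Old 4 the highest Old library, and only these overlapped. The log2 fold change was -0.53 (SE 0.14, adjusted p = 0.0133), and without Young 1 the adjusted p was 0.0541. Sdha, the subunit that binds succinate, had 578 ± 58.0 CPM in Old, against 596 ± 38.1 CPM in Young (log2 fold change -0.04, SE 0.10, adjusted p = 0.825), and its sign turned with library totals as the only scaling (0.12). Sdhc had 302 ± 96.7 CPM in Old, against 265 ± 97.2 CPM in Young (adjusted p = 0.755). Sdhd had 10.45, 2.97, 10.95, 2.53 and 8.39 CPM in Old, against 2.07, 5.89, 16.6, 4.53 and 64.4 CPM in Young (log2 fold change -1.38, SE 0.86, adjusted p = 0.322). Young 5 was far above the other Young libraries. Of 4 assembly factors of complex II none passed.

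In complex III, 5 of 9 members fell, which is the highest share of the 4 complexes, and no test compared the complexes. Cyc1, the haem protein that hands electrons to cytochrome c, lies on chromosome 15 (76343523 to 76346260, plus strand, 7 exons). It had 219.9, 229, 202, 208 and 158 CPM in Old, against 282, 292, 272, 281 and 269 CPM in Young. No Old library reached the lowest Young library, and the log2 fold change of Cyc1 was -0.46 (SE 0.10), at an adjusted p of 0.00404. Uqcrq, a small subunit beside cytochrome b (chromosome 11, 53427922 to 53430831, minus strand), had 602, 663, 611, 653 and 534 CPM in Old, against 802, 821, 810.1, 890.5 and 791 CPM in Young. The groups were again apart, with a log2 fold change of -0.43 (SE 0.08, adjusted p = 0.00256). Cyc1 and Uqcrq passed in each of the 16 fits that left out 1 library.

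A further 3 genes of complex III overlapped between the ages and passed less firmly. Uqcrh, the acidic hinge protein that sits at cytochrome c1 (chromosome 4, 116066965 to 116075071, minus strand), had 792, 856, 778, 1098 and 656 CPM in Old, against 1343, 1193, 1025, 1138 and 904 CPM in Young (log2 fold change -0.42, SE 0.13, adjusted p = 0.0318). Uqcr11, a small accessory subunit (chromosome 10, 80402997 to 80406830, minus strand), had 301, 370.5, 307, 355 and 261 CPM in Old, against 413, 433, 425, 445 and 351 CPM in Young (log2 fold change -0.38, SE 0.11, adjusted p = 0.0289). Uqcrc1, a core protein on the matrix side (chromosome 9, 108936633 to 108949623, plus strand), had 267, 329.8, 273, 296 and 248 CPM in Old, against 394, 355, 368, 332 and 295 CPM in Young (log2 fold change -0.30, SE 0.10, adjusted p = 0.0480). For all of them Young 5 was the lowest Young library. Leaving out 1 library at a time, Uqcrh kept its call in 8 of 16 fits, Uqcr11 in 9 and Uqcrc1 in 4, and without Young 1 their adjusted p-values were 0.116, 0.0673 and 0.155. The sign of Uqcrh turned with the clock score as a covariate (0.0118). Uqcrfs1, the Rieske iron-sulfur protein, did not pass: it had 375, 396, 452, 171 and 323 CPM in Old, against 240.3, 262, 328, 319.5 and 531 CPM in Young (log2 0.03, SE 0.28). Old 4 was its lowest and Young 5 its highest library, and without these libraries and Old + PM 3 it had a log2 fold change of 0.42 (SE 0.12, adjusted p = 0.0129). That fit, chosen after seeing the data, removes the extremes of this gene and keeps Young 1, its lowest Young library. Its value is therefore not read as a result. With the component of other genes, described below, as a covariate the log2 fold change was -0.21. Uqcr10, Uqcrc2 and Uqcrb had log2 fold changes of -0.37, -0.27 and -0.20 (adjusted p = 0.0898, 0.0832 and 0.196). Of 6 assembly factors of complex III none passed.

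**Figure D3:**
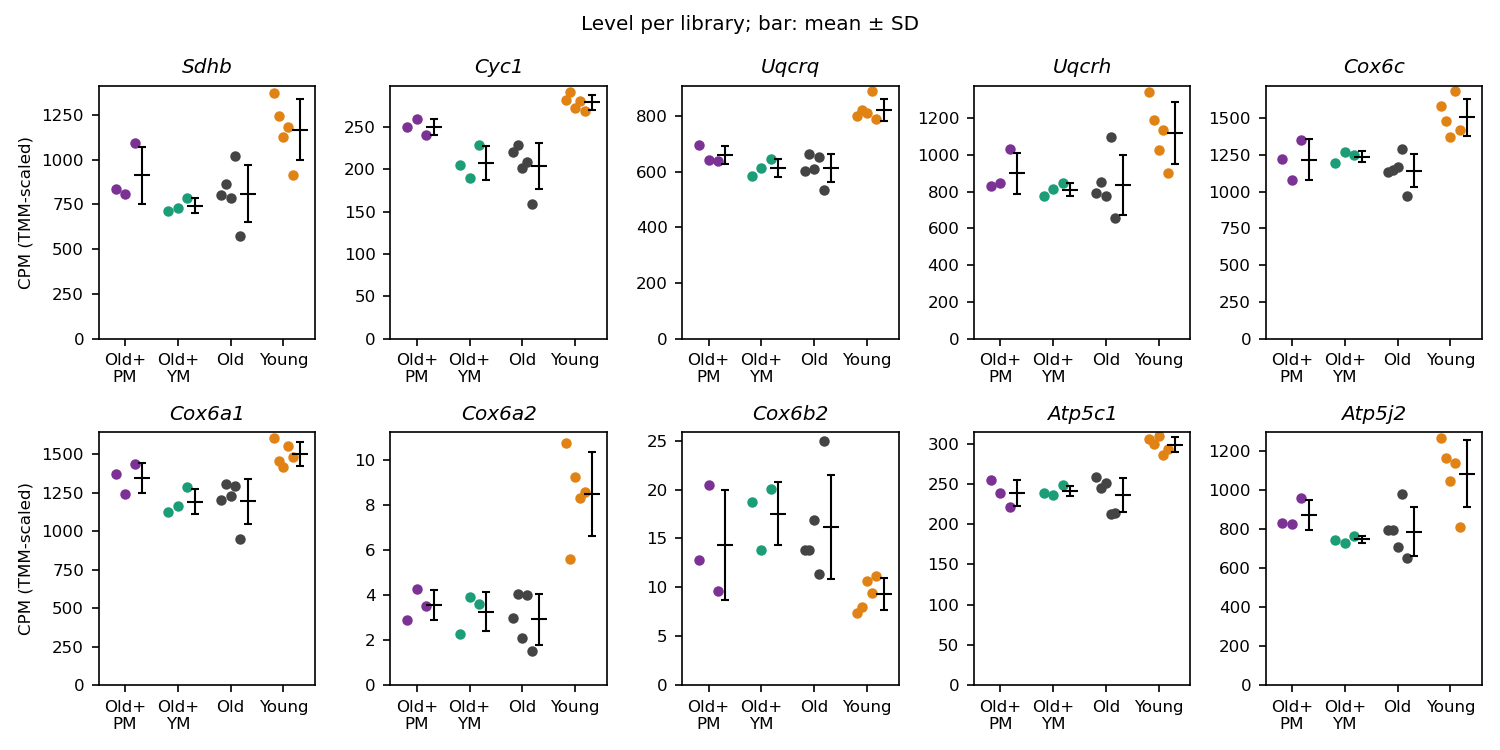
Level of 10 genes in each library (vertical axis, CPM on TMM-scaled library sizes, from 0), with the mean and SD of each group beside the points. Cyc1, Uqcrq, Cox6c, Cox6a1, Cox6a2 and Atp5c1 have all Old points below all Young points, Cox6b2 has them above, and Sdhb, Uqcrh and Atp5j2 overlap.

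Complex IV had 2 broadly expressed genes among its calls. Cox6c, a transmembrane subunit around the catalytic core (chromosome 15, 35925886 to 35938246, minus strand), had 1136, 1149, 1165, 1290.2 and 971 CPM in Old, against 1584, 1479, 1374, 1683 and 1418 CPM in Young. The groups did not overlap, and its log2 fold change of -0.40 (SE 0.10) had an adjusted p of 0.00899 and passed in each of the 16 fits without 1 library. Cox6a1, the widely expressed form of subunit VIa (chromosome 5, 115345642 to 115348981, minus strand), had 1201, 1303, 1226, 1293 and 947 CPM in Old, against 1607, 1454, 1415, 1550.3 and 1479 CPM in Young. These groups did not overlap either (log2 -0.33, SE 0.10, adjusted p = 0.0273), and the call held in 9 of the 16 fits, with the highest adjusted p without Young 1 (0.0960). The subunits that are built in first did not pass: Cox4i1 had 893 ± 122 CPM in Old, against 954 ± 110.2 CPM in Young (log2 fold change -0.09, SE 0.11, adjusted p = 0.621), and Cox5a had 533 ± 43.1 CPM in Old, against 561 ± 23.8 CPM in Young (log2 fold change -0.07, SE 0.09, adjusted p = 0.623). With library totals as the only scaling their log2 fold changes were 0.07 and 0.09. The 3' end of Cox5a overlaps Gm26631, which runs in the opposite direction, and whether counting used strand is not stated. Cox7a2, Cox6b1, Cox8a, Cox5b, Cox7b and Cox7c ranged from -0.28 to -0.01 and did not pass, nor did Cox7a2l, a factor that joins complexes III and IV (0.04, SE 0.13).

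Isoforms typical of other tissues gave both the largest fall and the sole rise, at low levels. Cox6a2, the heart and skeletal muscle form of subunit VIa (chromosome 7, 128205435 to 128206387, minus strand), had 2.99, 4.02, 2.09, 3.995 and 1.498 CPM in Old, against 10.7, 5.59, 9.21, 8.31 and 8.54 CPM in Young. No Old library reached a Young one, and the log2 fold change was -1.53 (SE 0.28, adjusted p = 0.00123), the largest among the members that passed. Treated kidneys had 2.89, 4.25 and 3.52 CPM in Old + PM and 2.28, 3.89 and 3.58 CPM in Old + YM, each below the lowest Young library. The 3' end of Cox6a2 overlaps Itgad, an integrin gene, on the other strand. Cox7a1, the muscle and brown fat form of subunit VIIa (chromosome 7, 30184144 to 30186078, plus strand), had 30.7, 36.1, 34.1, 31.0 and 30.2 CPM in Old, against 39.2, 44.3, 34.6, 50.2 and 45.5 CPM in Young. Young 3 lay within the Old range, and the call (log2 -0.40, SE 0.13, adjusted p = 0.0485) held in 4 of 16 fits without 1 library. Cox8b, another form of muscle and brown fat, had 0, 1.43, 0, 0 and 0.300 CPM in Old, against 0, 5.39, 0.810, 1.83 and 4.86 CPM in Young, and did not pass (adjusted p = 0.142). It passed the low-count filter through libraries outside Old, so fits that call it, without Old 2 or with the clock score, set Young against levels at or near 0 and are not read as a result.

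Markers of those tissues were measured beside these isoforms. The summed level of 11 muscle markers was at most 2.14 CPM in Old + PM, 1.34 CPM in Old + YM, 5.59 CPM in Old, against 2.27 CPM in Young, none of them was tested, and Myh1, a fast muscle myosin, was at 0 in all libraries. Of 6 brown fat markers 3 were tested and none passed in Old against Young, and their sum was 87.6 to 118 CPM in Old, against 82.4 to 128 CPM in Young. Most of that sum was Ppargc1a, a general regulator of mitochondrial genes, and the other 5 markers summed to 0.104 to 3.92 CPM in Old, against 0.607 to 24.4 CPM in Young. Dio2 was at most 1.20 CPM in Old and 0.263 CPM in Young. Cidea, a lipid droplet protein, had at most 1.72 CPM in Old, against 11.3 CPM in Young. Ucp1, which defines brown fat, had 0, 1.91, 0, 0 and 0 CPM in Old, against 0.930, 6.91, 0.304, 9.49 and 15.6 CPM in Young. The Young libraries with high Ucp1, Young 2, 4 and 5, were also those with the most Cox8b and Cox7a1. Cox6a2 did not follow them, since Young 1 was highest at 10.7 CPM with 0.930 CPM of Ucp1. In Old + PM 1, 2 and 3, Cox7a1 had 41.8, 40.6 and 27.3 CPM with Ucp1 at 0.559, 0 and 0 CPM. In Old + YM 1, 2 and 3, Cox7a1 had 36.4, 46.3 and 35.9 CPM with Ucp1 at 1.24, 2.80 and 0 CPM. The part of brown fat in the Cox7a1 and Cox8b values was not tested.

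Cox6b2, a form of subunit VIb typical of testis (chromosome 7, 4751792 to 4753094, minus strand), was the sole member that rose. It had 13.8, 13.8, 16.9, 11.4 and 25.0 CPM in Old, against 7.34, 8.03, 10.6, 9.38 and 11.2 CPM in Young. Every Old library exceeded every Young library, with a log2 fold change of 0.80 (SE 0.22, adjusted p = 0.0225). The adjusted p was 0.0588 without Young 1, 0.0567 without Young 2 and 0.0931 without Old 5. Its partner form Cox6b1, which most tissues use, had 719.8 ± 85.8 CPM in Old, against 843 ± 39.0 CPM in Young (log2 fold change -0.23, SE 0.10, adjusted p = 0.122). Germ cell markers summed to at most 0.939 CPM in Old, against 1.03 CPM in Young, and 3 of the 7 were at 0 in all libraries.

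The calls of complex V were Atp5c1 and Atp5d of the central stalk, Atp5g1 of the c-ring and the accessory subunit Atp5j2. The catalytic subunits did not pass, and differences between subunits were not tested. Atp5a1 and Atp5b, which form the catalytic head, had 1344 ± 138 and 1293 ± 169 CPM in Old, against 1338 ± 152 and 1494 ± 118 CPM in Young. Their log2 fold changes were 0.01 (SE 0.10, adjusted p = 0.980) and -0.21 (SE 0.11, adjusted p = 0.206). Atp5b passed in 2 of 30 alternative fits. Atp5c1, the gamma subunit that turns inside the head (chromosome 2, 10056016 to 10080510, minus strand, 10 exons), had 258, 245, 251, 213 and 213 CPM in Old, against 306, 299, 309, 286 and 293 CPM in Young. The groups were apart, and Atp5c1, with a log2 fold change of -0.34 (SE 0.08) and an adjusted p of 0.0115, passed also in each of the 16 fits without 1 library. Atp5d, the delta subunit of the same stalk (chromosome 10, 80138632 to 80145818, plus strand), had 404, 423, 357, 418 and 315 CPM in Old, against 489.7, 487, 509.7, 490.4 and 463 CPM in Young. These did not overlap either (log2 -0.35, SE 0.09, adjusted p = 0.0175), and the adjusted p lay between 0.0527 and 0.0669 without Young 1, 2, 3 or 4. Atp5e, the epsilon subunit of that stalk, had 354, 366, 380.4, 366 and 332 CPM in Old, against 427, 421, 397, 449 and 468 CPM in Young. It did not overlap and missed the threshold (log2 -0.27, SE 0.09, adjusted p = 0.0553).

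The c-ring is built from identical proteins made by 3 genes. Atp5g1 (chromosome 11, 96068852 to 96075670, minus strand) had 108, 104, 108, 114 and 87.4 CPM in Old, against 156, 140.4, 138, 121 and 104 CPM in Young (log2 fold change -0.34, SE 0.11, adjusted p = 0.0358). Young 5 lay within the Old range, and the call held in 9 of 16 fits without 1 library (adjusted p = 0.133 without Young 1). Atp5g3 had 2928 ± 427 CPM in Old, against 3039.5 ± 411 CPM in Young (log2 fold change -0.05, SE 0.11, adjusted p = 0.811, and 0.12 with library totals as the only scaling). Atp5g2 was near the detection limit, with 1.07 ± 0.601 CPM in Old, against 1.23 ± 0.531 CPM in Young. Of the 3 genes only Atp5g1 passed, and differences between them were not tested. Atp5j2, an accessory subunit of the membrane part (chromosome 5, 145183698 to 145192062, minus strand), had 795, 795, 705, 980.1 and 651 CPM in Old, against 1263, 1160.5, 1044, 1137 and 810.2 CPM in Young. Its log2 fold change was -0.46 (SE 0.12) at an adjusted p of 0.0141, or 0.0553 without Young 1, with Young 5 and Old 4 the libraries that overlapped. Just short of the threshold stood Atp5k, another accessory subunit (log2 -0.38, adjusted p = 0.0505), and Atp5pb, the b subunit of the peripheral stalk (log2 -0.29, adjusted p = 0.0527). The other peripheral stalk genes Atp5h, Atp5j and Atp5o ranged from -0.23 to -0.10 and did not pass, nor did Atp5l, Atp5md and Atp5mpl, between -0.24 and 0.02.

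Other genes of the pathway also fell in Old. Of 37 nuclear genes of complex I, 13 fell and none rose in Old, such as Ndufb4 (log2 -0.74, adjusted p = 0.00101), Ndufb2 (-0.53) and Ndufa10 (-0.52). Among 14 carriers and partners of the chain 4 fell, with Cycs, which encodes the cytochrome c that links complexes III and IV, down by log2 -0.88 (SE 0.12, adjusted p = 8.80e-05), Chchd2 by -0.61 and Coq9, needed to make ubiquinone, by -0.50. Of 24 assembly factors of complex IV 7 fell, among them Taco1 (-0.81), which helps translate the mitochondrial COX1 message, Higd1a (-0.53) and Coa3 (-0.43). Of 6 assembly factors and regulators of complex V 1 fell, Atpif1 (log2 -0.48, adjusted p = 0.00580), which encodes the inhibitor of ATP hydrolysis by the synthase. Among 8 tested protein genes of the mitochondrial genome ND5 fell (-0.53) and ND3 rose (3.60, SE 0.81). The rise of ND3 was at a low level, with a mean of 10.04 CPM in Old, against 0.890 CPM in Young. ND5 had means of 2646 CPM in Old and 3830 CPM in Young. CYTB and COX1, subunits of complexes III and IV, did not pass (0.00 and -0.20). Among 21 tested regulators of mitochondrial genes and factors of the mitochondrial genome none passed as lower in Old, with log2 fold changes down to -0.38 (Ssbp1, SE 0.30). Ppara (0.43, adjusted p = 0.0127) and Nfe2l2 (0.28, adjusted p = 0.0239) rose, and Ppargc1a (0.24), Nrf1 (-0.04), Gabpa (-0.05), Esrra (-0.10) and Tfam (0.04) did not pass. In the 3 comparisons with treated mice none of these genes passed.

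Within groups the members did not move as a block. After the mean of its group was taken from each library, the first component of the 45 members held 60.8% of their variance over 16 libraries, and the median correlation between members was 0.23. Genes were not scaled to equal spread, so this percentage is not variation shared evenly by the members. Sdhd and the nearly undetected Cox8b had the largest loadings (0.53 and 0.52) and the widest SD within groups (log2 1.33 and 1.63). Against that component, computed without the gene in question, 15 members had r over 0.5 and 15 had r below -0.5. The first set held Atp5j (r 0.90), Cox7c (0.86), Atp5md (0.86), Uqcrfs1 (0.86) and Sdhd (0.74). The other set held Cox7a2l (-0.90), Atp5j2 (-0.86), Uqcr10 (-0.86), Uqcrh (-0.84) and Sdhb (-0.77). Young 5 (4.10) and Old + PM 1 (2.59) scored highest on the component and Young 1 (-3.84), Old 4 (-3.00) and Old + PM 3 (-2.41) lowest. Cox7c, for example, had 571, 306 and 127 CPM in Old + PM, 692, 707 and 712 CPM in Old + YM, 529, 389, 567, 141 and 436 CPM in Old, against 198, 259, 424, 364 and 830.0 CPM in Young. Its spread within a group exceeded the differences between Old and Young.

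**Figure D4:**
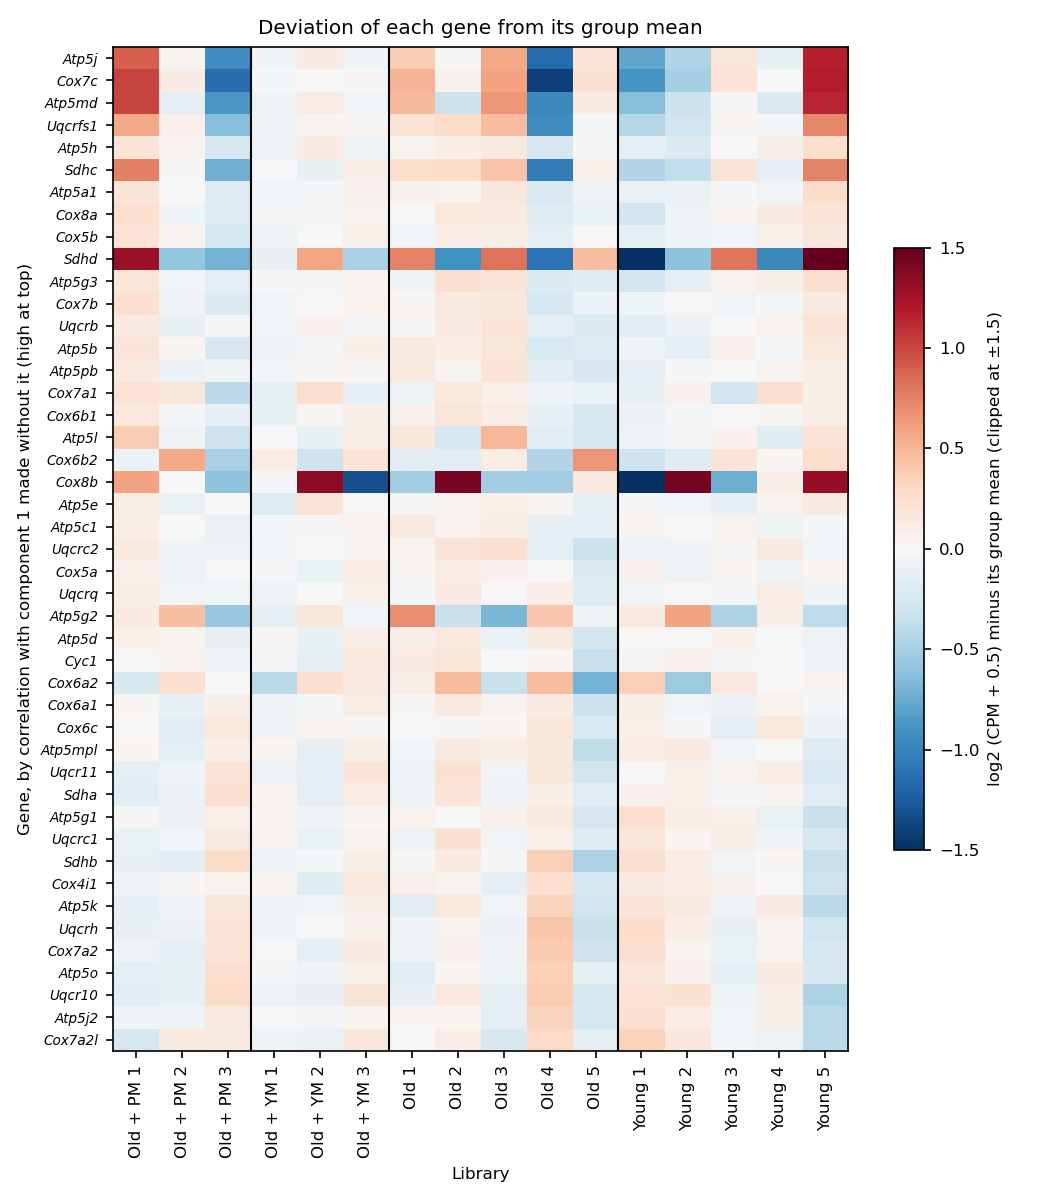
Deviation of each gene (rows) from its group mean in each library (columns), as log2 of CPM plus 0.5, clipped at ± 1.5; rows are ordered by correlation with component 1. Genes at the top and bottom have opposite colours in Old + PM 1 and 3, Old 4, Young 1 and Young 5.

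The same axis ran through genes outside the pathway. The component of the members had r 0.90 with a component computed from 2000 other genes, and that component had r -0.89 with the slope of expression on GC content of the 3' end. These points share library and depth and are given as a description. The 15 members with r over 0.5 had a median GC of 43% over the last 500 bases of the transcript, and the 15 with r below -0.5 had 50.8%. None of the first 15 was called lower in Old, against 7 of the second 15 and 7 of the 15 between, which had a median GC of 50.4%. Cyc1, Uqcrq, Cox6a2, Cox6a1, Atp5c1 and Atp5d, which did not overlap between Old and Young, were in that middle set. With the component of other genes as a covariate 29 members passed in Old against Young (28 lower, 1 higher), or 64.4%, where 17.9% of all genes passed. With the GC slope 25 passed (24 lower, 1 higher), or 55.6%, against 16.9% of all genes. Both include the 15 members called without them. What sets this axis was not tested.

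Old + YM kidneys had no member past the threshold against Old with edgeR (0 of 45, where 0.0205% of all tested genes passed). Sdhd alone passed with DESeq2 (adjusted p = 0.04997, 1 of 45 or 2.22%, against 0.291% of all genes). It also passed alone with limma-voom (adjusted p = 0.0435, 2.22%, against 0.0341%). With edgeR, 8 of 45 members had an unadjusted p under 0.05 (9.48% of all tested genes). Log2 fold changes were below 0 for 12 of 45 members (54.5% of all tested genes), with a median of 0.14 against -0.03 over all tested genes. Groups did not overlap for 11 members (9.1% of all tested genes), and 1 of these was lower in Old + YM (3.95% of all tested genes). White fat markers (7 genes) summed to 95.4 to 165 CPM in Old + YM and 38.5 to 69.6 CPM in Old, and their part in these values was not tested.

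Sdhd, the membrane anchor with the widest spread, had 72.3, 118 and 55.8 CPM in Old + YM and 10.45, 2.97, 10.95, 2.53 and 8.39 CPM in Old. All 3 Old + YM libraries exceeded every Old library, and Young 5, at 64.4 CPM, lay within their range (log2 3.54, SE 0.93, adjusted p = 0.290). Atp5j, which encodes coupling factor 6 of the peripheral stalk, had 314, 357 and 315 CPM in Old + YM and 159, 124, 182, 55.0 and 139.9 CPM in Old (log2 1.31, SE 0.47, adjusted p = 0.424, and 0.00296 with the component of other genes as a covariate, at log2 0.69). Both genes belong to the set that moved with the component described above, and on its counterpart from other genes the 3 Old + YM libraries scored 0.920 to 1.15 and the Old libraries -1.64 to 0.667. Atp5l, an accessory subunit, had 15.1, 13.9 and 16.2 CPM in Old + YM and 10.45, 7.65, 13.2, 8.19 and 7.59 CPM in Old (log2 0.68, SE 0.21, adjusted p = 0.306). Cox7b, a small subunit of complex IV, had 590.2, 606 and 629.9 CPM in Old + YM and 467, 507, 514, 383 and 431 CPM in Old (log2 0.40, SE 0.12, adjusted p = 0.289). Uqcrc1 went the other way, with 219, 198 and 221 CPM in Old + YM and 267, 329.8, 273, 296 and 248 CPM in Old (log2 -0.41, SE 0.12, adjusted p = 0.289). These groups did not overlap for any of the 5 genes, which have the smallest unadjusted p-values of the comparison and did not pass.

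Old + PM kidneys had no member past the threshold against Old either, with edgeR (0 of 45, where 0% of all tested genes passed), DESeq2 or limma-voom. At an unadjusted p under 0.05 there were 5 of 45 (6.16% of all tested genes), and log2 fold changes were below 0 for 12 of 45 (53.8% of all tested genes), with a median of 0.11 against -0.02 over all tested genes. Groups did not overlap for 5 members (4.02% of all tested genes), and none of these was lower in Old + PM (2.1% of all tested genes). They were the 5 with the smallest p-values, each at an adjusted p of 0.790. Atp5g1 had 143, 132 and 148 CPM in Old + PM and 108, 104, 108, 114 and 87.4 CPM in Old (log2 0.44, SE 0.12). Cox4i1, the regulatory subunit of complex IV, had 1083, 1142 and 1169.9 CPM in Old + PM and 936, 918, 808, 1059 and 744 CPM in Old (log2 0.34, SE 0.12). Cyc1 had 251, 259.9 and 241 CPM in Old + PM and 219.9, 229, 202, 208 and 158 CPM in Old (log2 0.30, SE 0.11). For Cyc1 the Old + PM libraries lay above all Old and below all Young libraries. Atp5d had 490.5, 484 and 428 CPM in Old + PM and 404, 423, 357, 418 and 315 CPM in Old (log2 0.29, SE 0.11). Cox5a had 658, 592 and 625 CPM in Old + PM and 541, 575, 558, 529 and 463 CPM in Old (log2 0.23, SE 0.10). Old 5 was the lowest Old library for each of these 5 genes.

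**Figure D5:**
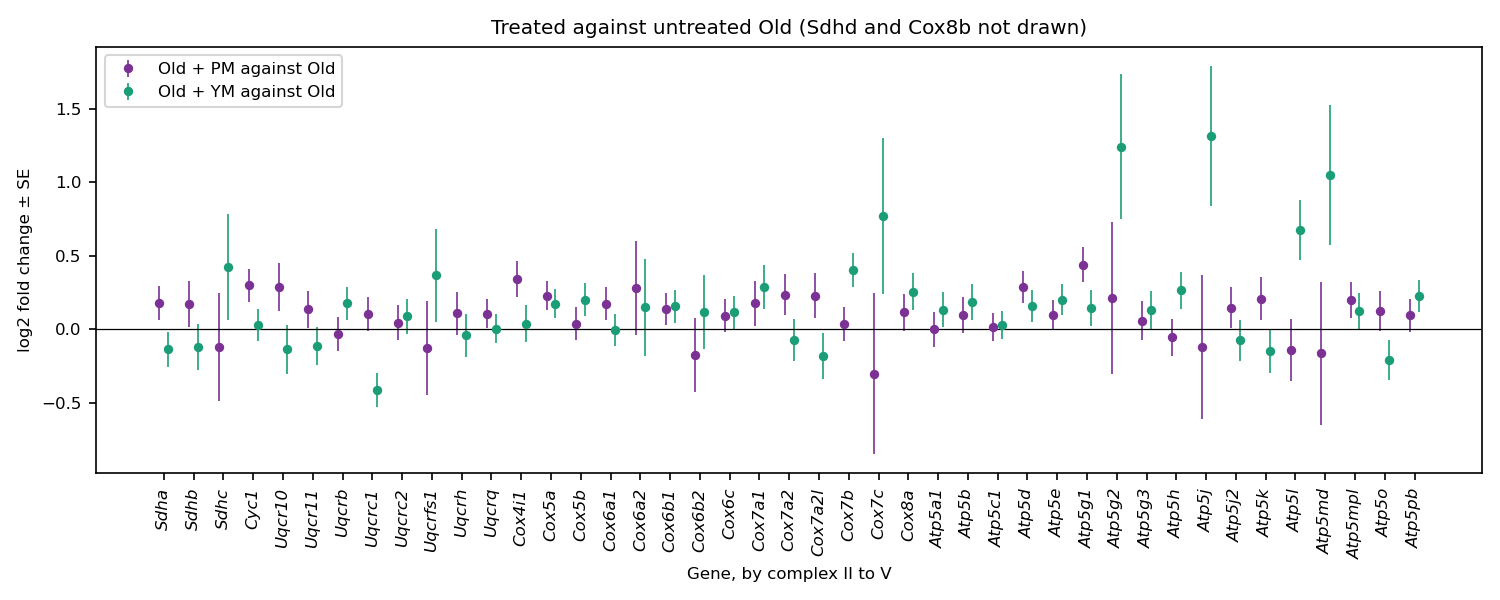
Log2 fold change of Old + PM and of Old + YM over Old (vertical axis) for each tested gene except Sdhd and Cox8b, with bars of ± 1 SE and genes in order of complex. Most points lie within 0.5 of 0, and the Old + YM points of Atp5j, Atp5g2, Atp5md, Cox7c and Atp5l lie highest with wide bars; no point passed the threshold.

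Set directly against each other, Old + PM and Old + YM differed in no member by edgeR (0 of 45, where 0% of all tested genes passed) or limma-voom (0.0136%). Uqcrc1 alone passed with DESeq2 (adjusted p = 0.0355, 1 of 45 or 2.22%, against 0.418% of all genes). By edgeR, 15 of 45 had an unadjusted p under 0.05 (12.8% of all tested genes). Groups did not overlap for 20 (23.8% of all tested genes), of which 9 were lower in Old + PM (11.9% of all tested genes). Log2 fold changes were below 0 for 25 of 45 members (48.5% of all tested genes). Uqcrc1 had 283, 295 and 333 CPM in Old + PM and 219, 198 and 221 CPM in Old + YM (log2 0.52, SE 0.13, adjusted p = 0.237). Sdhd had 12.8, 3.10 and 2.79 CPM in Old + PM and 72.3, 118 and 55.8 CPM in Old + YM (log2 -3.72, SE 1.14, adjusted p = 0.274). Atp5l had 10.998, 7.96 and 6.62 CPM in Old + PM and 15.1, 13.9 and 16.2 CPM in Old + YM (log2 -0.82, SE 0.24, adjusted p = 0.258). Old + PM and Old + YM did not overlap for any of these 3 genes. Cox7b (log2 -0.37, SE 0.13) and Atp5j (log2 -1.43, SE 0.55) were likewise lower in each Old + PM library and did not pass (adjusted p = 0.292 and 0.326). The comparisons with Old share the Old libraries, so their values are given side by side and not set against each other.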

How the data were processed

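Total RNA of mouse kidneys was turned into 3' end libraries (Lexogen QuantSeq, 500 ng of RNA), per the labels' protocols. Each library came as a deposited table of raw counts by gene symbol. Bowtie2, bedtools and the mm10 build are named in the submitters' processing notes; their versions, the annotation, the use of strand and the handling of multiply matching reads were not stated. Groups follow the labels, and the members and gene lists were chosen with earlier results of these data known.

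Counts of 40879 symbols passed through filterByExpr with a minimum count of 10 and a smallest group of 3, so that 26214 were dropped and 14665 tested. All 16 libraries were fitted together with edgeR 4.0.16 (TMM scaling, robust quasi-likelihood test, R 4.3.3), with Benjamini-Hochberg adjustment over all tested genes and a threshold of 0.05. The 4 comparisons set Old against Young, each treated group against Old, and the treated groups against each other. Library totals were 8223008 to 10914515 counts. Values per library are given for the members that passed (at most 14 by size of change, with a mean of at least 5 CPM), for core subunits and tissue isoforms, and, where fewer than 5 passed, for the 5 smallest p-values; other lists have at most 3 named genes each, and transcription regulators, assembly factors and markers named beyond that were chosen after their values were seen. Alternatives used DESeq2 1.42.0, limma-voom (limma 3.58.1), other scalings, filters and covariates, a replicate block, and each library left out. Scripts were tested on simulated data. Gene positions are from GENCODE M21 (GRCm38), where all 48 members were found, 2 by an older symbol. No 2 libraries of the same group agreed within sampling noise, and pairs across groups were not compared.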

Additional observations from a re-analysis of the deposited data

Results flagged for a closer look

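Within-group outliers were looked for in 66 sets of values, each from the 5 Old or the 5 Young libraries, and 5 were found, where chance gives about 1 in 20. The treated groups were not examined for outliers. Cox6a1 in Old 5 was at 947 CPM, with the other Old libraries at 1201 to 1303 CPM, and the summed level of complex IV in Old 5 was 7124 CPM, with the others at 8329 to 8706 CPM. Old 5 also had the highest macrophage marker sum, 589 CPM. Cox8b in Old 2 was at 1.43 CPM, with the other Old libraries at 0 to 0.300 CPM, and Old 2 was the sole Old library with Ucp1 counts. Atp5a1 in Young 5 was at 1606 CPM, with the other Young libraries at 1241 to 1300.3 CPM. Sdhd in Young 5 was at 64.4 CPM, with the others at 2.07 to 16.6 CPM. Both of these genes were among the 15 that followed the main component within groups, on which Young 5 scored highest.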

How the results depend on the processing

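In Old against Young, 15 members passed (33.3%, against 13.6% of all genes), and 5 to 18 did when 1 library was left out. The 5 were without Young 1 (11.1%, against 9.53%) and the 18 without Old 4 (40%, against 18.2%). The count was 9 with upper quartile scaling (20%, against 12.7% of all genes), 8 with only the groups compared (18.2%, against 10.4%), 2 with the clock score as a covariate (4.44%, against 3.42%), 3 with library totals as the only scaling (6.67%, against 15.2%), 29 with the component of other genes (64.4%, against 17.9%) and 25 with the GC slope (55.6%, against 16.9%). The last 3, and the fit without 3 libraries (22, or 48.9%, against 26.1%), were added after seeing the data. DESeq2 gave 18 (40%, against 14.7% of all genes) and limma-voom 16 (35.6%, against 12.4%). Without a low-count filter there were 13 (28.9%, against 6.99%), and with a filter at a mean of 1 CPM 16 (35.6%, against 14.7%). In Old + YM against Old, 1 member (2.22%) passed with DESeq2, limma-voom, the component and the GC slope. Of all genes 0.291%, 0.0341%, 0.0614% and 0.123% passed in these fits. In Old + PM against Old + YM 1 passed with DESeq2 (2.22%, against 0.418%). Every fit without 1 library gave 0 in the 3 comparisons of treated mice, where at most 0.265% of all genes passed. Same-numbered replicates did not deviate together (r -0.27 to 0.33), so the numbers were not taken as pairs. With a replicate block 17 members passed in Old against Young (37.8%, against 14.3% of all genes). In the other comparisons 0 members passed with the block, where at most 0.0409% of all genes passed.

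Signs turned for these members in Old against Young. Sdha was 0.00742 with upper quartile scaling, 0.15 with the clock score, 0.0177 with the component, 0.00223 with the GC slope and 0.12 with library totals. Uqcrfs1 was -1.08 with the clock score, -0.21 with the component and -0.12 with the GC slope, and -0.10 to 0.28 without 1 library. Uqcrh was 0.0118 with the clock score. Cox4i1 was 0.26 with the clock score and 0.0670 with library totals, and Cox5a 0.0939 with library totals. Atp5a1 was -0.28, -0.0617 and -0.0429 with the clock score, the component and the GC slope, and -0.0448 to 0.108 without 1 library. Atp5g2 was 0.10 with the clock score and -0.51 to 0.0588 without 1 library. Atp5g3 was 0.0581 without 3 libraries, 0.12 with library totals and -0.11 to 0.0374 without 1 library. The cause was not tested. Members near 1 CPM rest on about 10 counts per library.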
